A study of Rattus norvegicus with 6 samples.

Results

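The genes described here build, cut, cap and carry cargo along microtubules and actin filaments: tubulins, stathmins, the MAP1 family, kinesins and cytoplasmic dynein on the microtubule side, and the Arp2/3 complex, actin-related proteins, alpha-actinins, capping protein, cofilins, profilins, beta-thymosins and unconventional myosins on the actin side. Members were all probe sets of the array whose annotation gave exactly 1 gene symbol and whose symbol began with the name of one of these families. This gave 117 probe sets for 91 genes, out of 15866 probe sets on the array besides its controls and 10411 genes with a probe set of their own symbol alone. A further 11 probe sets that matched a family name but carried several symbols were left out. The symbols matched the families, with 2 points on naming: Actr5, Actr6 and Actr8 encode nuclear actin-related proteins of chromatin remodelling complexes, and Map1lc3a encodes a protein of autophagosome membranes.

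Liver endothelial cells were taken from control Wistar rats and from adult male Wistar rats in which cirrhosis had been induced, by collagenase digestion of the liver, density centrifugation and capture on antibody-coated magnetic beads. Their RNA was measured on 6 Affymetrix rat 230A arrays, 3 per group. The sources used here do not say how cirrhosis was induced, the age and sex of the controls, the antibody, or how many rats stand behind an array. The p-values therefore reflect only how far arrays of a group lay apart, which may be technical, and the number of arrays limits the precision.

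Microtubules are hollow polymers of alpha- and beta-tubulin that grow from gamma-tubulin rings, are taken apart by stathmins and some kinesins, and serve as tracks for kinesins and dynein. Branches of actin filaments start on the Arp2/3 complex. The filaments draw on monomers held by profilin and thymosin, are ended by capping protein, are severed by cofilin and are bundled by alpha-actinin. In sinusoidal endothelium the actin cytoskeleton frames the fenestrae, the pores through which plasma reaches hepatocytes.

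Arrays of the same group correlated at 0.912 to 0.967 and arrays of different groups at 0.821 to 0.874 (Pearson's r across the 9519 tested probe sets, log2 scale). The 3' to 5' signal ratio of beta-actin, which rises with RNA degradation, was 1.22 to 1.57 in control and 1.23 to 1.27 in cirrhotic arrays (two-sided exact permutation test, p = 0.4, smallest possible 0.1). Cell type markers differed between the groups. General endothelial markers were present in all arrays, with 10 of 10 tested probe sets lower in cirrhotic and a summed signal of 29072 to 29576 in control and 13452 to 14899 in cirrhotic arrays. Stellate cell and myofibroblast markers summed to 2098 to 3729 in control and 19181 to 35413 in cirrhotic arrays, and bile duct markers to 729 to 1468 and 5125 to 12712. Cirrhotic array 3 stood apart from the other cirrhotic arrays: all 8 bile duct, all 5 macrophage and 7 of 8 T and NK cell marker probe sets had their lowest cirrhotic signal on it. In such bulk samples a change in the number of cells of a type and a change in RNA per cell cannot be told apart, and the part that these markers had in the results below was not tested unless a value says otherwise.

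Most cytoskeletal genes did not pass the test: Stmn1, Kif22, Tuba4a, Tubb4b, Dynlt1, Actn1, Arpc5, Arpc2 and Actr1b were higher in cirrhotic arrays, and Myo1c was lower. Of the 117 member probe sets 75, for 65 genes, were bright enough to be tested. In limma's moderated test on log2(signal + 16), adjusted by Benjamini-Hochberg over all 9519 tested probe sets, 10 of the 75 were higher and 2 were lower in cirrhotic at an adjusted p under 0.05, which is 16% of the members tested, against 25.4% of all probe sets tested. The share called higher was 13.3%, near the 12.3% of all probe sets, and the share called lower was 2.67%, against 13.2%. At least 2-fold higher were 5 members (5.41% of all probe sets were), and 0 members were at least 2-fold lower (3.82% of all were). Signals of the groups did not overlap for 32 members, or 42.7%, against 44.9% of all tested probe sets. The 63 members that did not pass had log2 differences between -0.54 and 0.51. The median log2 difference was 0.14 over the members tested and -0.02 over all probe sets tested. At an unadjusted p under 0.05 the count was 23 of 75. The share of all probe sets at that cut is not given here, but it cannot be under the 25.4% that passed after adjustment. Leaving out 1 array moved the number called higher to between 5 (without cirrhotic array 1) and 14 (without cirrhotic array 3), and the number called lower to 1 without control array 1 or 3 or cirrhotic array 2. Over all tested probe sets, 627 were higher without cirrhotic array 1 and 1256 without cirrhotic array 3, against 1167 with all arrays. Those called lower numbered 840, 694 and 1185 without control array 1, control array 3 and cirrhotic array 2, against 1254.

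**Figure D1:**
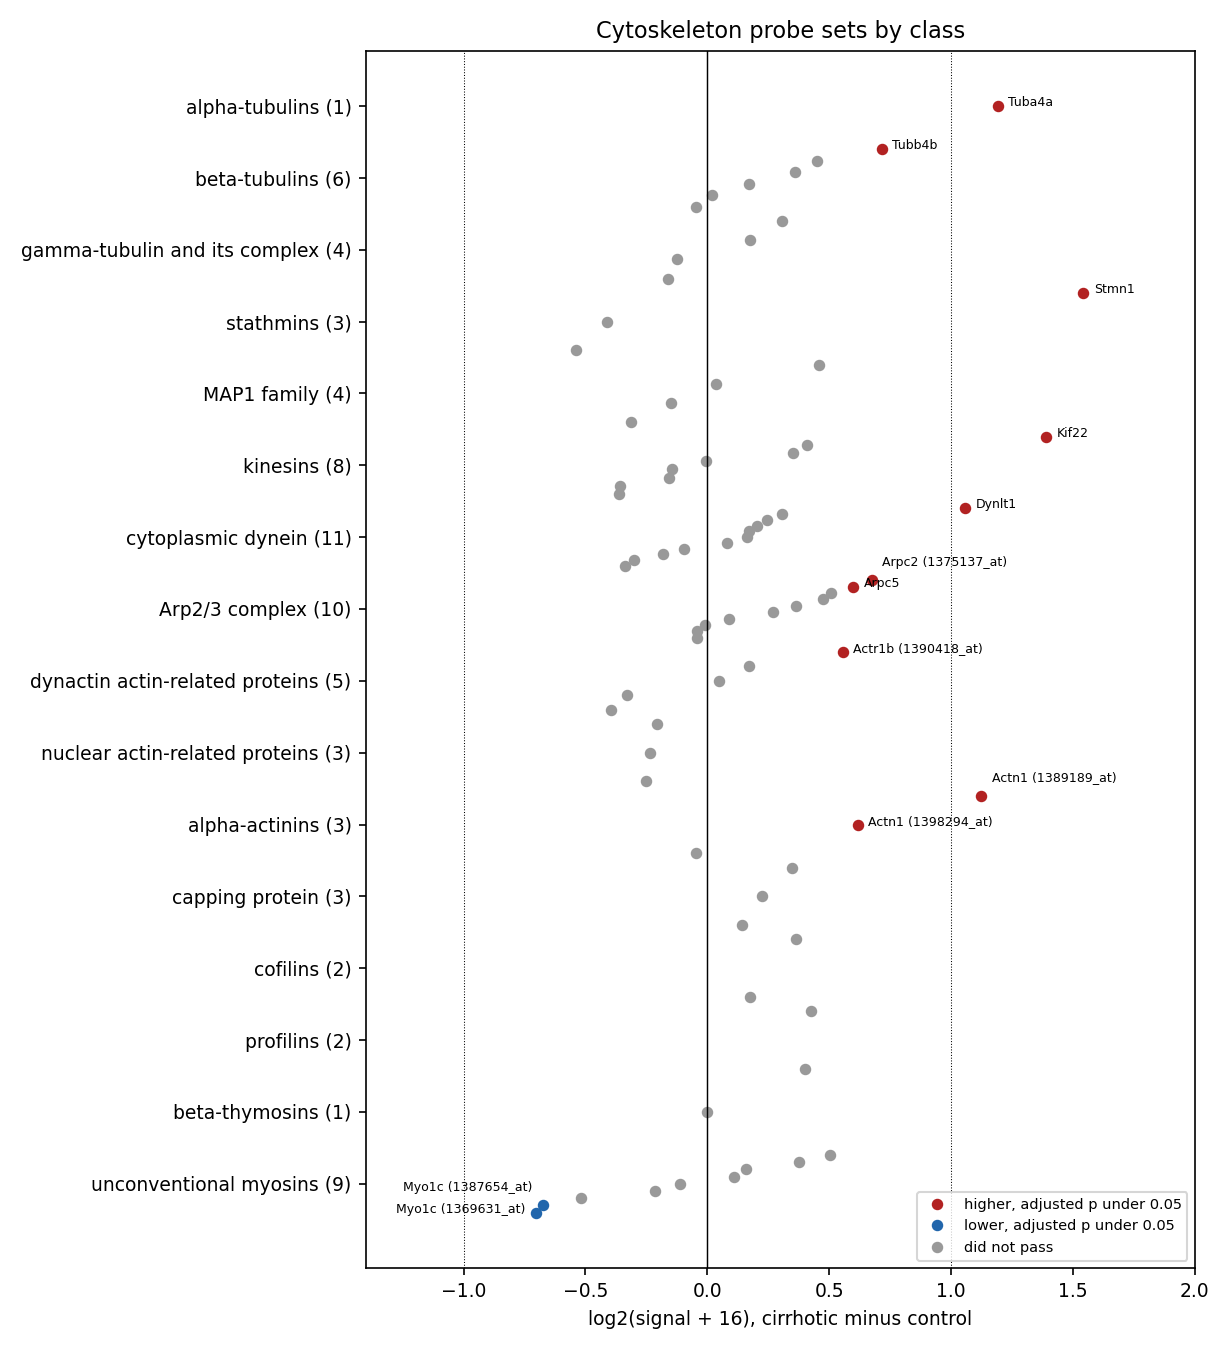
Log2 difference (cirrhotic minus control, on log2(signal + 16)) of the 75 tested member probe sets, 1 point each, by class, with the number tested in parentheses and dotted lines at 2-fold. The 10 called higher (red) and 2 called lower (blue) are named, and the other 63 lie between -0.54 and 0.51.

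The highest differences among tested members were those of Stmn1, a gene of tubulin turnover, and Kif22, a gene of the mitotic spindle. For these and Tubb4b, the 250 bases before the start of the gene are shown, since their signals were ordered alike over the cirrhotic arrays. They are from RefSeq promoter windows on build GRCr8, read 5' to 3' on the strand of the gene, with matches in capitals. The letters searched on both strands were CCAAT, the CCAAT box bound by NF-Y, and TTTGAA or TTCGAA, the cell cycle genes homology region (CHR), both of which are described in promoters of genes used in mitosis.
Kif22, chr1:191080879-191081128, minus strand: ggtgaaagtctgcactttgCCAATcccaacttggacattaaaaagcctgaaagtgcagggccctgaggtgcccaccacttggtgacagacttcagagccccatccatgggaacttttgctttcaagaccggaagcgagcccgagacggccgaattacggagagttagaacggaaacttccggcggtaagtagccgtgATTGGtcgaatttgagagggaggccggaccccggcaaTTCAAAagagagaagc
Stmn1, chr5:151964929-151965178, plus strand: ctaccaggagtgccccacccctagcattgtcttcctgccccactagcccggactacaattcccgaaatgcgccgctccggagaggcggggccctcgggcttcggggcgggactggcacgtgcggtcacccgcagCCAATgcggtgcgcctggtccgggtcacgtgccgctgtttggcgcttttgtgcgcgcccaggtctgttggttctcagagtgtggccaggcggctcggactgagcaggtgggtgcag
Tubb4b, chr3:28438456-28438705, minus strand: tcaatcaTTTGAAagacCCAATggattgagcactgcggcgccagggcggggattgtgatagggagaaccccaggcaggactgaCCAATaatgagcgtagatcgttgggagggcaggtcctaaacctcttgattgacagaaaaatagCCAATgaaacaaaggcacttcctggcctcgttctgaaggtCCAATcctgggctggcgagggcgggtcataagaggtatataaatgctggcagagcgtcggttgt

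The Kif22 window held 2 CCAAT boxes, 1 of them on the opposite strand between 53 and 49 bases before the start, and 1 CHR match between 16 and 11 bases before it. The Tubb4b window held 4 CCAAT boxes, the nearest between 64 and 60 bases before the start, and 1 CHR match. The Stmn1 window held 1 CCAAT box and no CHR match, and no matches overlapped in these windows. Over the whole RefSeq table, 34.0% of 33469 windows of this length held a CCAAT box and 17.4% held a CHR match. Windows were found for 80 of the 91 member genes. Of their 82 windows 29, or 35.4%, held a CCAAT box, close to the share in the table. The share was 31.0% (22 of 71) in windows of members not called. It was 63.6% (7 of 11) in windows of the 10 genes with a called probe set. Besides the windows shown, these were windows of Actn1, Actr1b, Dynlt1 and Myo1c, the last being the gene that fell. Kif20a, too dim to be tested and so among the members not called, had 3 CCAAT boxes. A CHR match was in 8 of the 82 member windows and in 2 of those 11, the Kif22 and Tubb4b windows shown. These matches are a description of letters, with no test and no measurement of binding.

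Alpha-tubulin was represented by Tuba4a, an isotype that is made without the usual terminal tyrosine, and Tuba8. Tuba4a read 286, 293 and 201 on control arrays 1 to 3 and 554, 763 and 527 on cirrhotic arrays 1 to 3. Every cirrhotic signal lay above every control signal, and the mean went from 260 ± 51.5 to 615 ± 129 (SD, n = 3 per group), a log2 difference of 1.19 (SE 0.20, adjusted p = 0.00512). Tuba8 fell under the brightness limit, between 29.8 and 53.4 on all arrays.

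Beta-tubulins had 6 tested probe sets for 5 genes, of which 1 rose. Tubb4b, a widely expressed isotype, read 1833, 1243 and 1567 in control and 2631, 2155 and 2830 in cirrhotic arrays, and its difference was 0.72 (SE 0.17, adjusted p = 0.0204). The groups were separate, but the call ended without control array 2 (adjusted p = 0.0579), control array 3 (0.0654) or cirrhotic array 1 (0.0758). Tubb5, the main beta-tubulin of most cells, was read by 2 probe sets, with differences of 0.36 (SE 0.15, adjusted p = 0.114) and 0.02 (SE 0.14, adjusted p = 0.936). The groups overlapped on both. Tubb2a and Tubb6 had differences of 0.17 (SE 0.17) and -0.04 (SE 0.26) and did not pass. Tubb2b, an isotype abundant in neurons, read 279, 335 and 540 in control and 574, 784 and 295 in cirrhotic arrays, so that cirrhotic array 3 lay among the controls (0.45, SE 0.36, adjusted p = 0.397). Both probe sets of Tubb3, the neuronal isotype, were too dim to be tested.

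Gamma-tubulin and its ring complex, the sites from which microtubules grow, did not pass on any of 4 tested probe sets, with differences from -0.16 to 0.31. Tubg1, gamma-tubulin itself, read 296 to 359 in control and 352 to 392 in cirrhotic arrays (0.18, SE 0.13, adjusted p = 0.353). Tubgcp2, a ring protein, had the highest of these differences (0.31, SE 0.15, adjusted p = 0.169), with no overlap between the groups, and Tubgcp3 was too dim to be tested.

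Stmn1, which binds tubulin dimers and promotes the shortening of microtubules, had the highest difference of all tested members. Its signals were 452, 545 and 642 in control and 1780, 960 and 2428 in cirrhotic arrays. The groups did not overlap, and cirrhotic array 2 was much lower than the other cirrhotic arrays. The mean rose from 547 ± 95.0 to 1723 ± 736, a log2 difference of 1.54 (SE 0.32, adjusted p = 0.0106). Its relatives of the nervous system did not follow. Stmn3 differed by -0.54 (SE 0.29, adjusted p = 0.205), Stmn4 differed by -0.41 (SE 0.31, adjusted p = 0.361), and neither passed, while both probe sets of Stmn2 were too dim, between 3.60 and 43.8.

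Of the MAP1 family, 0 of 4 tested probe sets passed (limma, Benjamini-Hochberg adjustment; 1 at an unadjusted p under 0.05). Map1b, which stabilises microtubules in growing neurons, read 211, 194 and 221 in control and 337, 276 and 269 in cirrhotic arrays, and the groups did not overlap (0.46, SE 0.14, adjusted p = 0.0512). Without a variance trend it passed (adjusted p = 0.0475), as it did with array weights (0.00855) and with suffixed probe sets left out (0.0498). The other Map1b probe set lay under the brightness limit. Map1a differed by -0.15 (SE 0.14), and Map1s, a widely expressed relative, by -0.31 (SE 0.15, no overlap), with adjusted p-values of 0.472 and 0.164. Map1lc3a, the autophagosome protein, read 1269 to 1306 in control and 1285 to 1369 in cirrhotic arrays (0.04, SE 0.11, adjusted p = 0.835).

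Kinesins made up 24 probe sets for 17 genes, but only 8 probe sets were bright enough to be tested, and 1 of these rose. Kif22, a kinesin that binds chromosome arms in mitosis, read 86.9, 106 and 98.4 in control and 351, 152 and 404 in cirrhotic arrays, in the same order over the cirrhotic arrays as Stmn1. Its difference was 1.39 (SE 0.33, adjusted p = 0.0186), and the call ended without control array 1 (adjusted p = 0.0593), control array 3 (0.0612) or cirrhotic array 1 (0.0795). All Kif22 control signals lay under the brightness limit, so the probe set was tested only because of its cirrhotic signals. With no limit on brightness Kif22 passed (adjusted p = 0.0328), and with the dimmest 60% left out it was not tested. The kinesins of organelle transport did not pass: Kif5b, the conventional heavy chain, differed by -0.01 (SE 0.20, adjusted p = 0.989), and Kif3b, a kinesin-2 motor, by -0.16 (SE 0.12). Kif1c and Kif13a, carriers of vesicles, had differences of 0.35 (SE 0.16) and 0.41 (SE 0.28), and Kif2a, which shortens microtubules, of -0.36 (SE 0.18). Kif26b differed by -0.36 (SE 0.20), and these adjusted p-values were all above the threshold.

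Some kinesins under the brightness limit still separated the groups. Kif20a, a motor of cytokinesis, read 10.1, 44.2 and 13.9 in control and 378, 102 and 456 in cirrhotic arrays. With no limit on brightness it passed, at a difference of 2.95 (SE 0.56, adjusted p = 0.0136 over 15866 probe sets), as did Kif3c, a kinesin-2 subunit, which read 102, 52.9 and 68.5 against 217, 157 and 190 (1.20, SE 0.25, adjusted p = 0.0180). A second Kif3c probe set read 7.80 to 11.3 in control and 7.70 to 49.7 in cirrhotic arrays. On control arrays 1 to 3 the highest bacterial control probe set read 49.9, 43.9 and 31.2. The Kif20a control signals were near or under this, so the size of its difference depends on the 16 added to each signal. Of the other mitotic kinesins, Kif15, Kif18b and both probe sets of Kif2c had overlapping groups and did not pass with or without the limit. Kif12 read 15.5, 60.4 and 55.0 in control and 136, 173 and 78.4 in cirrhotic arrays, separate groups with an adjusted p = 0.0671 without the limit. The bile duct markers beside it summed to 12712, 11931 and 5125 on cirrhotic arrays 1 to 3.

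Dividing cell markers are given beside the spindle genes. Of 16 tested probe sets in a list of 20 genes of replication and mitosis, 11 rose and 0 fell, against 12.3% and 13.2% of all tested probe sets, and 4 of the 11 calls held without any 1 array, those of Cdk1, Top2a, Mcm3 and Mcm6. The mitotic kinase gene Cdk1 rose by 1.49 (SE 0.27, adjusted p = 0.00675), and Top2a, a topoisomerase of chromosome condensation, by 1.44 (SE 0.22, adjusted p = 0.00363). The list's summed signal was 6444 to 7637 in control and 7938 to 10377 in cirrhotic arrays, and none of its probe sets was at 0. On cirrhotic array 2, 19 of its 25 probe sets had their lowest cirrhotic signal, and on cirrhotic array 3, 16 had their highest. Over all tested probe sets, 3409 of 9519 were lowest on cirrhotic array 2 and 3340 of 9519 were highest on cirrhotic array 3. Hepatocyte markers had the same order, with 11 of 12 probe sets lowest on cirrhotic array 2 and 10 of 12 highest on cirrhotic array 3. They summed to 37252 to 49625 in control and to 61022, 46483 and 78234 on cirrhotic arrays 1 to 3. Of 10 tested hepatocyte probe sets 4 rose and 0 fell. The order was not particular to spindle genes, since the Actr1b probe set that rose read 274, 253 and 280 on cirrhotic arrays 1 to 3. Stmn1, Kif22, Kif20a and Tubb4b had this order too, but they are shown together because of it, so it is a description of chosen genes and supports nothing. Stathmin and these kinesins are textbook genes of dividing cells, and which cells in the preparation carried them was not measured.

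**Figure D2:**
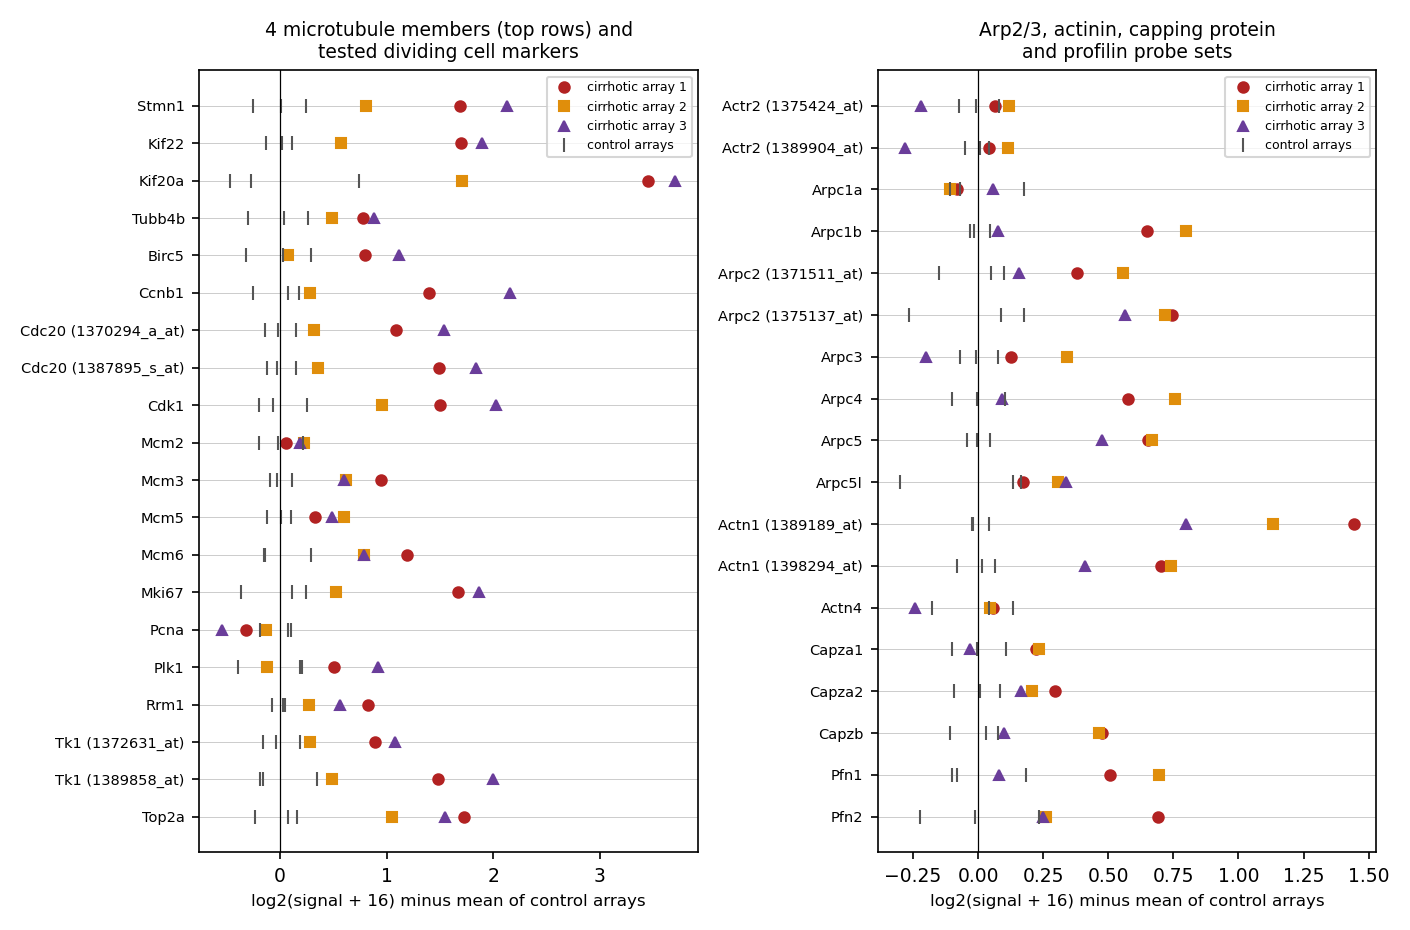
Log2(signal + 16) on each array minus the mean of the 3 control arrays, for 4 microtubule members with the tested dividing cell markers (left) and for tested probe sets of 4 actin classes (right); grey ticks are control arrays and coloured symbols are cirrhotic arrays. On the left, cirrhotic array 2 is the lowest of the cirrhotic arrays in the top 4 rows; on the right, cirrhotic array 3 is the lowest for 8 of 10 Arp2/3 probe sets.

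Cytoplasmic dynein, the motor that runs to microtubule minus ends, had 11 tested probe sets for 10 genes, and 1 rose. Dynlt1, a Tctex light chain, read 350, 294 and 339 in control and 794, 790 and 542 in cirrhotic arrays. The groups were well apart, and the difference was 1.06 (SE 0.18, adjusted p = 0.00510). Its close relative Dynlt3 differed by 0.08 (SE 0.12, adjusted p = 0.65). The heavy chain Dync1h1, which is the motor itself, read 1807, 1377 and 1542 in control and 1525, 1236 and 1080 in cirrhotic arrays, with overlap (-0.30, SE 0.17, adjusted p = 0.221). The intermediate chain Dync1i2 and the light intermediate chains Dync1li1 and Dync1li2 had differences of -0.10, 0.16 and -0.34, and none passed. Dynlrb1, a roadblock light chain, differed by 0.25 (SE 0.11, adjusted p = 0.144), with no overlap. The 2 probe sets of the light chain Dynll2 had opposite signs, -0.18 (SE 0.17) and 0.30 (SE 0.23), with neither past the threshold. Dync2h1 and Dync2li1, parts of the dynein of cilia, had differences of 0.20 and 0.17 and did not pass.

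Dynactin links dynein to its cargo through a short filament of actin-related proteins. Of 5 probe sets for 3 of these genes, 1 rose. For Actr1b, a filament subunit, the probe set that rose read 160, 210 and 166 in control and 274, 253 and 280 in cirrhotic arrays (0.56, SE 0.15, adjusted p = 0.0314). That call ended without control arrays 1 or 3 (adjusted p = 0.102 and 0.0997), without cirrhotic arrays 1 or 3 (0.102 and 0.0668) and with no limit on brightness (0.0561). The brighter Actr1b probe set, at 722 to 765 in control and 752 to 773 in cirrhotic arrays, gave 0.05 (SE 0.11, adjusted p = 0.788), so the evidence for this gene was divided. Actr1a, the other filament subunit, differed by -0.33 (SE 0.14, adjusted p = 0.108). Actr10, at the pointed end, had 2 probe sets of opposite sign that separated the groups in opposite directions (0.17 and -0.40, adjusted p = 0.319 and 0.0929). The nuclear proteins Actr5, Actr6 and Actr8 had differences from -0.25 to -0.21, and none passed.

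The Arp2/3 complex, which starts actin branches, had 10 tested probe sets for 8 genes, of which 2 rose and 0 fell. Arpc5, its smallest subunit, read 1823, 1886 and 1774 in control and 2884, 2916 and 2546 in cirrhotic arrays. The spread within each group was small against the gap, and the difference was 0.60 (SE 0.11, adjusted p = 0.00674). For Arpc2, a core subunit, 1 probe set read 1125, 1443 and 1532 against 2283, 2236 and 2010 and rose by 0.67 (SE 0.15, adjusted p = 0.0133). Leaving out cirrhotic array 1 ended that call (0.0565). The brighter Arpc2 probe set had the same sign and no overlap, but did not pass (0.36, SE 0.13, adjusted p = 0.0795). Arpc1b, the subunit isoform prominent in blood cells, read 1864, 1965 and 1884 in control and 2996, 3321 and 2010 in cirrhotic arrays (0.51, SE 0.18, adjusted p = 0.0794). Its isoform Arpc1a had a difference of -0.04 (SE 0.13). Actr2, the Arp2 subunit, did not pass on either probe set (-0.01 and -0.04), nor did Arpc3 (0.09), Arpc4 (0.47) or Arpc5l (0.27).

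Cirrhotic array 3 was the lowest cirrhotic array for 8 of the 10 tested Arp2/3 probe sets, against 38.8% of all tested probe sets. Without it, Arpc1b (0.72, adjusted p = 0.00392), Arpc4 (0.67, adjusted p = 0.0114) and the brighter Arpc2 probe set (0.47, adjusted p = 0.0298) passed as well. So did Capzb (0.47, adjusted p = 0.0244) and Pfn1 (0.60, adjusted p = 0.0139). All of these probe sets had their lowest cirrhotic signal on array 3, so larger differences without it follow from leaving it out and support nothing. Over all 9519 tested probe sets, 2472 were called without this array, against 2421 with all arrays. Macrophage markers summed to 9881, 8497 and 4705 on cirrhotic arrays 1 to 3 and to 2963 to 5134 on control arrays, and T and NK cell markers to 5152, 5822 and 3263 and to 2808 to 3690. The macrophage markers did not all move alike: of 5 tested probe sets 2 rose and 1 fell. Of 7 tested T and NK cell probe sets 4 rose and 0 fell. No marker probe set of these lists was at 0, and the part of these cells in the Arp2/3 differences was not tested.

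Alpha-actinin cross-links actin filaments. Both probe sets of Actn1, the non-muscle form of stress fibres and adhesions, rose. The first read 842, 881 and 845 in control and 2354, 1894 and 1499 in cirrhotic arrays, with no overlap, and its mean went from 856 ± 21.7 to 1916 ± 428 (1.12, SE 0.17, adjusted p = 0.00348). On the second, signals were 503, 469 and 522 against 820, 842 and 667 (0.62, SE 0.14, adjusted p = 0.0154). Leaving out control array 1 or 2 (both 0.0506) or cirrhotic array 1 (0.0643) ended that call. Actn4, the other non-muscle form, read 2158 to 2674 in control and 2060 to 2536 in cirrhotic arrays (-0.05, SE 0.14, adjusted p = 0.833). Whether Actn1 and Actn4 differed from each other in their response was not tested. The muscle forms Actn2 and Actn3 were too dim to be tested. The stellate cell and myofibroblast list, whose 10 tested probe sets all rose, summed to 35413, 19181 and 24645 on cirrhotic arrays 1 to 3, and its part in the Actn1 difference was not tested.

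**Figure D3:**
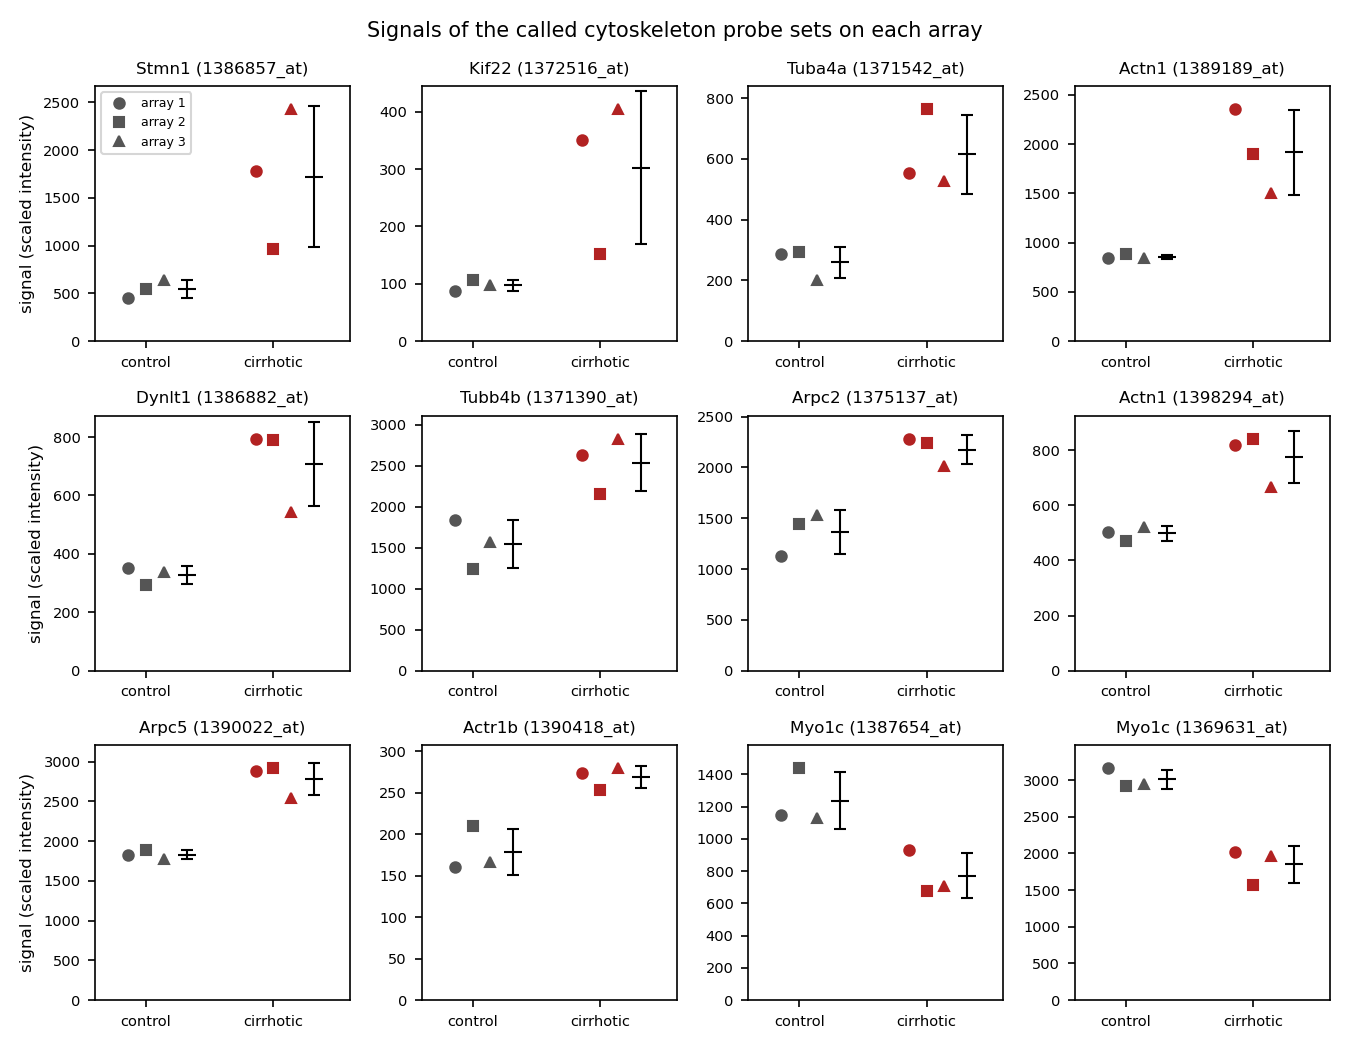
Signal (scaled intensity, linear axis from 0) of the 12 called member probe sets on each of 3 control (grey) and 3 cirrhotic (red) arrays; the black bar beside each group is the mean ± SD. In all 12 panels the groups do not overlap, as for 44.9% of all tested probe sets. The panels were chosen by their adjusted p, so this separation adds no support. Stmn1, Kif22, Tubb4b, Actr1b and both Myo1c probe sets have their lowest cirrhotic signal on array 2, and the others on array 3.

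Proteins that handle actin ends and monomers did not pass on any of 8 tested probe sets. For Capzb, the beta subunit of capping protein, the signals were 1945, 1713 and 1885 in control and 2570, 2551 and 1976 in cirrhotic arrays (0.35, SE 0.14, adjusted p = 0.102), and for its partners Capza1 and Capza2 the differences were 0.14 (SE 0.13) and 0.22 (SE 0.12). Capza3, the form of the testis, was near the floor at 5.70 to 11.1. Cfl2, the cofilin of muscle, had differences of 0.36 (SE 0.19) and 0.18 (SE 0.21) on 2 probe sets. Pfn1, the common profilin, read 2864, 2900 and 3488 in control and 4366, 4978 and 3245 in cirrhotic arrays, and overlapped through cirrhotic array 3 (0.43, SE 0.17, adjusted p = 0.101). Pfn2, the neuronal form, differed by 0.40 (SE 0.20, adjusted p = 0.179). Tmsb4x, the main buffer of actin monomers, read 9307 to 10564 in control and 8828 to 10867 in cirrhotic arrays (0.00, SE 0.10, adjusted p = 1), with overlap. Tmsb15b2, a relative too dim to be tested, read 34.1, 53.6 and 59.1 against 147, 150 and 96.1 and passed with no limit on brightness (1.18, SE 0.25, adjusted p = 0.0197).

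Unconventional myosins move membranes and cargo along actin. They had 9 tested probe sets for 7 genes and held both of the falls among the members, on 2 probe sets of the same gene. Myo1c, a class I myosin that tethers membranes to actin, read 3162, 2923 and 2944 in control and 2021, 1565 and 1969 in cirrhotic arrays on its brighter probe set. Every cirrhotic signal was below every control signal, and the mean went from 3010 ± 133 to 1852 ± 250 (-0.70, SE 0.13, adjusted p = 0.00706). On its other probe set, signals were 1147, 1438 and 1127 against 934, 675 and 707 (-0.68, SE 0.17, adjusted p = 0.0239). That second call ended without control array 1 (adjusted p = 0.055), 2 (0.0738) or 3 (0.057) or cirrhotic array 2 (0.0571). General endothelial markers fell in the same arrays, as given above, and their part in the Myo1c difference was not tested.

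The other myosins did not pass. Myo18a, a Golgi-associated myosin, differed by -0.52 (SE 0.18, adjusted p = 0.0677) and passed without control array 2 (-0.70, adjusted p = 0.0224). Myo5a, a vesicle carrier, read 127, 139 and 115 against 168, 223 and 173 (0.50, SE 0.17, adjusted p = 0.0666), with no overlap. Myo1e and Myo9b had differences of 0.38 (SE 0.18) and 0.11 (SE 0.19), Myo1d of -0.22 (SE 0.14), and the 2 probe sets of Myo6, which runs to the minus end of actin, of 0.16 and -0.11. Too dim to be tested were 10 myosin probe sets, among them Myo10, the motor of filopodia, at 87.4 to 115 in control and 46.4 to 78.9 in cirrhotic arrays, with no overlap (adjusted p = 0.099 with no limit on brightness).

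Of the members known from neurons, some lay under the brightness limit and some above it. Stmn2, Tubb3 and Dync1i1 were under it on every probe set. Tubb2b, Stmn3, Stmn4, Map1b and Pfn2 each had a tested probe set, with the values given above, and none passed. Kif5a, a neuronal kinesin heavy chain, gave -0.14 (SE 0.14) on its 1 tested probe set. Markers of neurons and nerve had 0 of 8 probe sets bright enough to be tested, with summed signals of 210 to 296 in control and 204 to 227 in cirrhotic arrays, and 3 of the 8 lay at or under the highest bacterial control probe set on all 6 arrays.

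Of 39 tested probe sets for regulators and adaptors of microtubules outside these families, 1 rose and 5 fell. Over all tested probe sets 12.3% were higher and 13.2% lower, so the count that fell was near the background. Mapt, the microtubule-binding protein tau, fell on 2 of 3 probe sets: on the brightest it read 637, 408 and 604 in control and 251, 232 and 291 in cirrhotic arrays (-1.03, SE 0.19, adjusted p = 0.00746), and on another the difference was -1.33 (SE 0.21, adjusted p = 0.00416). The third read 379, 107 and 306 against 264, 237 and 350, with overlap, and did not pass (0.24, SE 0.40, adjusted p = 0.698). Klc3, a light chain that couples kinesin to cargo, read 247, 245 and 329 against 95.8, 93.7 and 100 (-1.35, SE 0.17, adjusted p = 0.00154). The groups did not overlap on the Klc3 probe set or on the Mapt probe sets that fell. These 3 of the 6 calls held without any 1 array.

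In the list of actin assembly and signalling, 13 of 67 tested probe sets rose and 8 fell (median log2 difference 0.01), against 12.3% higher and 13.2% lower over all tested probe sets, and the count that fell was near the background. Of the 21 calls 6 held without any 1 array. Those that rose in this way were Capg, a gelsolin-related capper abundant in macrophages (1.80, SE 0.33, adjusted p = 0.00677), Flna, an actin cross-linker (1.09, SE 0.21, adjusted p = 0.00866), Evl, which speeds filament growth (0.97, SE 0.14, adjusted p = 0.00247; its other probe set did not pass, at -0.10, adjusted p = 0.833), and Pdlim7 (1.17, SE 0.19, adjusted p = 0.00439). Lima1, which stabilises filaments, read 2732, 2101 and 2807 in control and 881, 1007 and 894 in cirrhotic arrays and fell by 1.43 (SE 0.15, adjusted p = 0.000823). The adhesion adaptor Pxn fell by 1.07 (SE 0.16, adjusted p = 0.00288). Actg1, cytoplasmic gamma-actin, differed by -0.04 (SE 0.12, adjusted p = 0.836).

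Of 27 tested probe sets for conventional myosin, tropomyosin and calponin genes, 8 rose and 1 fell, against 12.3% higher and 13.2% lower over all tested probe sets. Of the 9 calls 7 held without any 1 array. Myl9, the regulatory light chain of contractile cells, read 389, 208 and 264 in control and 1583, 842 and 1276 in cirrhotic arrays (2.04, SE 0.28, adjusted p = 0.00232), and the heavy chain Myh10 rose by 1.50 (SE 0.23, adjusted p = 0.00328). Myh9, the non-muscle heavy chain of most cells, had a difference of 0.05 (SE 0.10, adjusted p = 0.717). Tagln, Tpm2 and Acta2 of this list are also in the stellate cell and myofibroblast list.

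**Figure D4:**
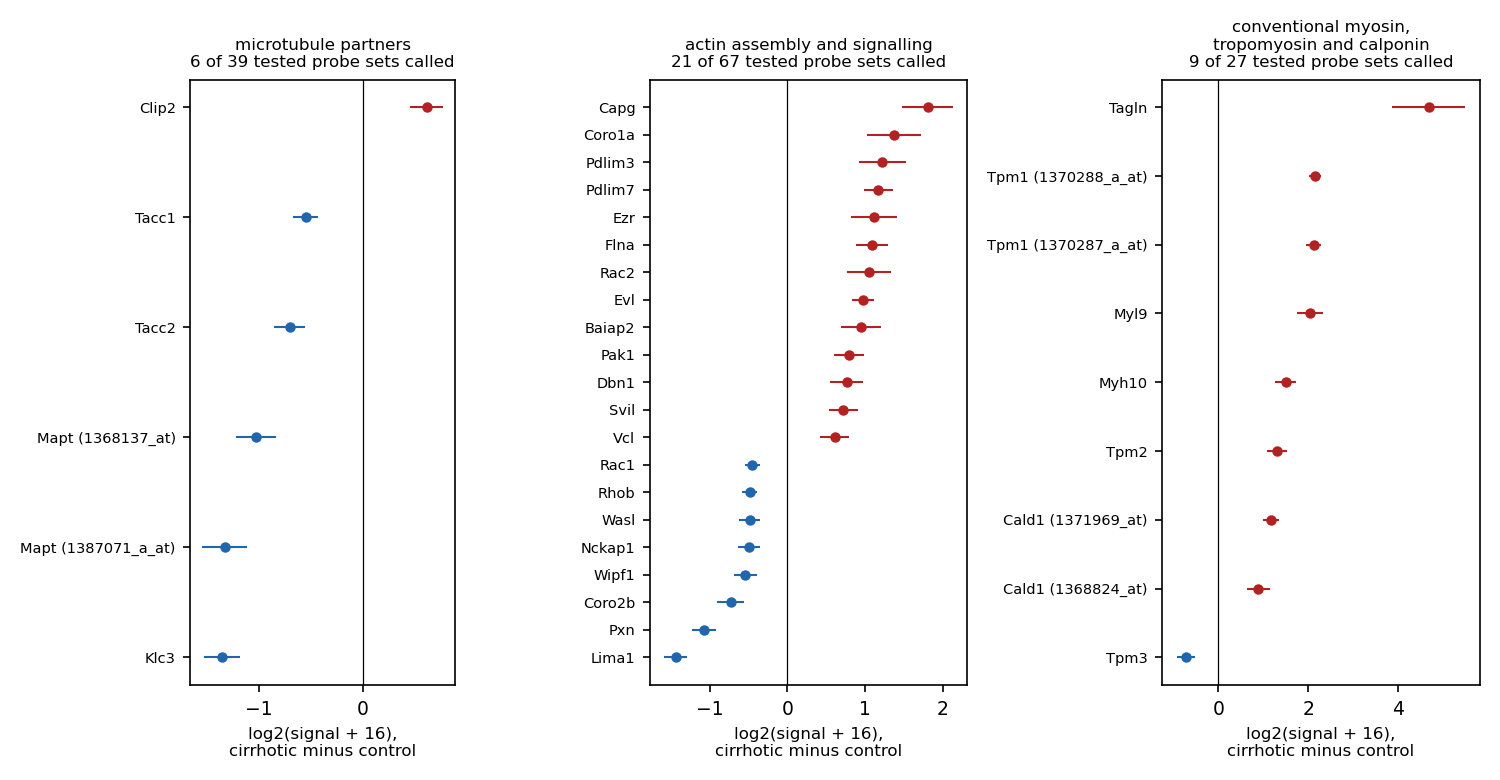
Log2 difference (cirrhotic minus control, on log2(signal + 16)) of the called probe sets in 3 lists of cytoskeletal genes outside the member families; bars are SE of the fit, red is higher and blue lower. Called higher and lower were 1 and 5 of 39 tested probe sets for microtubule partners, 13 and 8 of 67 for actin assembly and signalling, and 8 and 1 of 27 for conventional myosin, tropomyosin and calponin genes, against 12.3% and 13.2% of all tested probe sets.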

How the data were processed

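The authors deposited a linear intensity for each probe set of each array, made with software that the sources used here do not name. Their scaling was kept: after trimming 2% at either end, array means ranged from 399.2 to 399.6. A signal scaled this way does not show a change in total RNA per cell. All tests used log2(signal + 16), 16 being the 10th percentile of the values, rounded. The 57 control probe sets were left out, as were the dimmest 40% by mean log2(signal + 16) over all 6 arrays. This kept 9519 probe sets. The limit corresponds to a signal of about 127 on that log scale. A probe set with some high signals, such as Kif20a, can fall under it although its plain mean is higher. The group difference was tested two-sided with limma (version 3.58.1, under R 4.3.3, moderating variances by eBayes along a mean trend), with Benjamini-Hochberg adjustment over all tested probe sets and a threshold of 0.05. The fit was tested on simulated data with independent noise on each array and few changed probe sets. Such data lack shifts shared by many probe sets, so they give no error rate for these arrays. Differences are cirrhotic minus control.

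Members and gene lists were chosen with earlier results of these data known. Given with full values were members called at 2-fold or more, the brightest member and the member with the smallest p in each class, and genes whose probe sets disagreed; the remaining tested members are given by their difference, range or count. Tubb2b, Arpc1b, Kif12, Kif20a, Kif3c, Tmsb15b2 and Myo10 were chosen after their values were seen; list genes were taken from those whose call held without any 1 array, with Actg1 and Myh9 added. Symbols are from the platform annotation, and all 117 member gene identifiers were found in the GRCr8 gene table, with 0 symbols changed. Probe sets were not placed on a genome. Genes with near-identical copies, such as tubulins, can share signal. Further columns of values left aside numbered 0. Alternatives covered scaling, pseudocount, filter, variance model, array weights, probe set suffixes, array number and each array left out.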

Additional observations from a re-analysis of the deposited data

How the results depend on the processing

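All 12 called member probe sets kept their direction under every alternative in which they were tested, and 6 of them (Tuba4a, Stmn1, Dynlt1, Arpc5, the brighter probe sets of Actn1 and Myo1c) passed without any 1 array. Leaving out each array in turn gave 5 to 14 members higher, 1 to 2 lower, calls in 6 to 10 classes and 16 to 41 calls in the 3 lists of cytoskeletal partners, against 10, 2, 9 and 36 with all arrays. Over all tested probe sets it gave 627 to 1256 higher and 694 to 1216 lower, against 1167 and 1254 with all arrays. Array weights gave 20 higher and 5 lower of 75, with 1818 higher and 1954 lower among all 9519 tested probe sets. The array numbers 2 and 3 stand in the titles of both groups, but nothing in the labels pairs them, and same-numbered arrays did not deviate together (correlations of -0.01 and -0.16). With only these 4 arrays and the number as a replicate block, 3 members were higher and 0 lower, in 3 classes. Over all 9519 tested probe sets this fit called 497 higher and 411 lower. That fit gave 18 calls in the lists, and 11 members had an unadjusted p under 0.05. Without the number in the fit, 0 members were called, in 0 classes, with 11 list calls (12 members under 0.05). Over all 9519 tested probe sets it called 291 higher and 305 lower. For both fits the share of all probe sets at an unadjusted p under 0.05 is not given here. Both fits lacked the arrays numbered 1. Whether the smaller number of arrays or the choice of arrays ended the calls was not tested. Under quantile normalization and median centring the counts were 11 and 10 higher and 2 lower in each, and with no filter on brightness they were 12 higher and 2 lower of 117. Over all tested probe sets, quantile normalization called 1130 higher and 1327 lower, and median centring 925 and 1480. With no filter, 1279 were higher and 1178 lower of 15866. With the dimmest 60% left out, 8 members were higher and 2 lower of 54, against 826 higher and 1069 lower of all 6346 tested. Kif22 and the Actr1b probe set that rose were not tested in that fit.

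Some members near 0 changed sign. Actn4 gave 0.0020 with array weights and -0.13 to 0.052 without 1 array. Kif5b gave 0.0066 with quantile normalization, 0.10 on arrays 2 and 3 with or without the replicate block, and -0.23 to 0.15 without 1 array. Tmsb4x gave -0.078 with median centring, -0.11 on arrays 2 and 3 with or without the block, and -0.079 to 0.070 without 1 array. With median centring Map1lc3a was at -0.041 and the brighter Actr1b probe set at -0.029. The cause of these moves was not tested. Signal over background limits dim members: 42 of 117 were not tested, and the highest bacterial control probe set read 21.7 to 49.9.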
